A study of Mus musculus with 14 samples.

Results

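Iron uptake and handling in mouse intestine, intestinal adenomas and a colon carcinoma line was followed here through 10 genes that carry iron or heme into the cell, store it, break heme down or export iron. The genes were Slc11a2, Cybrd1, Slc46a1, Hmox1, Fth1, Ftl1, Slc40a1, Heph, Tfrc and Steap4, and they were chosen by name, as every non-control probe whose gene name in the scanner files equals one of them. All 10 of these were found among the 36161 gene names on the array, on 18 of its 55681 probes. RNA of 14 samples in 5 groups was measured on one-color Agilent mouse arrays: whole small intestine of C57BL/6J mice (3 arrays), macroscopic adenomas of APCmin/+ mice (3), whole tissue adjacent to adenomas of APCmin/+ mice (2), whole colon labelled C57BL/6J (3) and cultured CT26 cells (3). APCmin/+ mice carry a truncating mutation in 1 copy of Apc and form adenomas mainly in the small intestine, and CT26 is a mouse colorectal carcinoma line from ATCC, of BALB/c origin. No group received an experimental treatment. The study's methods call the wild-type mice adults and give no age for the APCmin/+ mice, which received an analgesic when suffering was detected.

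The sample list published with the data assigns each small intestine array to a mouse of its own, but every adenoma and adjacent array to the same APCmin/+ mouse. It also lists 1 of the colon samples under an APCmin/+ mouse, although all colon labels give C57BL/6J, and which colon array this is was not given, so the colon group may hold both genotypes. The spread among adenomas is therefore that between pieces of tissue of 1 animal, and genotype, animal and tissue cannot be told apart when these arrays are set against C57BL/6J tissue. The CT26 arrays are replicates of 1 cell line, and nothing says that they came from separate cultures. Colon is whole tissue, so strain, culture and tissue make-up cannot be told apart from tumor where CT26 is set against it. The p-values below measure only the spread between these samples.

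In the gut, dietary ferric iron is reduced at the apical membrane, enters the enterocyte through a proton-coupled ferrous transporter, and is either stored in ferritin or exported at the basolateral membrane by ferroportin, where a membrane ferroxidase oxidizes it for loading onto transferrin. Heme is taken up separately and is opened by heme oxygenase, which frees its iron. Dividing cells take up transferrin-bound iron through the transferrin receptor, while hepcidin, a peptide hormone, removes ferroportin from the membrane. Absorption takes place mostly in the proximal small intestine.

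Levels are given as the log2 of the background-subtracted signal minus the 75th percentile of the array, so that 0 is the signal at that percentile. They describe 1 probe across samples, and levels of different genes are not compared with each other. A gene was called when limma gave an adjusted p of at most 0.01 and a log2 difference of at least 1.2 in size, and all 18 probes were unsaturated and measured on every array. The scanner software marked 46.8% to 58.2% of an array's probes as well above background. Colon replicate 3 stood apart: over 20832 probes it correlated at 0.938 and 0.934 with the other colon arrays and at 0.951 to 0.969 with the small intestine arrays, and its median level of 8 colonocyte markers was -2.51, against 5.30 on both other colon arrays. Its summed level of 6 ileum markers was 2427 times the array's 75th percentile, against 22.5 and 26.6 on the others. Results that rest on colon are therefore given with and without it.

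Between adenomas and small intestine, 3 of the 10 genes were called: Steap4 and Hmox1 rose and Heph fell. Among all 22094 gene names tested, 22.4% were called in that comparison, 11.3% higher and 11.1% lower. In bulk tissue, fewer cells of a type and less RNA per cell cannot be told apart. Between adenomas and adjacent tissue only Steap4 was called, against 4.18% of 22199 gene names, with 2.40% higher and 1.78% lower. In both comparisons Steap4 was tested only because it was well above background on the adenomas, and it was so on no array of the other group. Between CT26 and colon, 4 of the 9 tested genes were called, with Hmox1 higher and Slc40a1, Heph and Cybrd1 lower, against 37.2% of 21692 gene names, with 21.0% higher and 16.2% lower. Without colon replicate 3 these were also 4 of 9, against 39.5%, with 20.1% higher and 19.4% lower. No gene of the 10 was called by limma between adjacent tissue and small intestine, where 0.00924% of all names were called. At an unadjusted p under 0.05 there were 1 of 9, against 30.6% of all names. None was called between colon and small intestine, where 0.00969% of all names were called, and 3 of 9 had such a p, against 23.9% of all names. Without colon replicate 3, Heph was called lower in colon than in small intestine, against 7.23% of all names, with 3.34% higher and 3.90% lower. None was called between adenomas and colon, against 3.70% of all names, and 4 of 10 had an unadjusted p under 0.05, against 29.2% of all names. None was called there without colon replicate 3, against 11.7%, and 4 of 10 had such a p, against 42.6%. These comparisons share arrays: 3 of them use the same small intestine arrays and 3 use the same adenomas, so that their values for a gene are not independent.

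**Figure D1:**
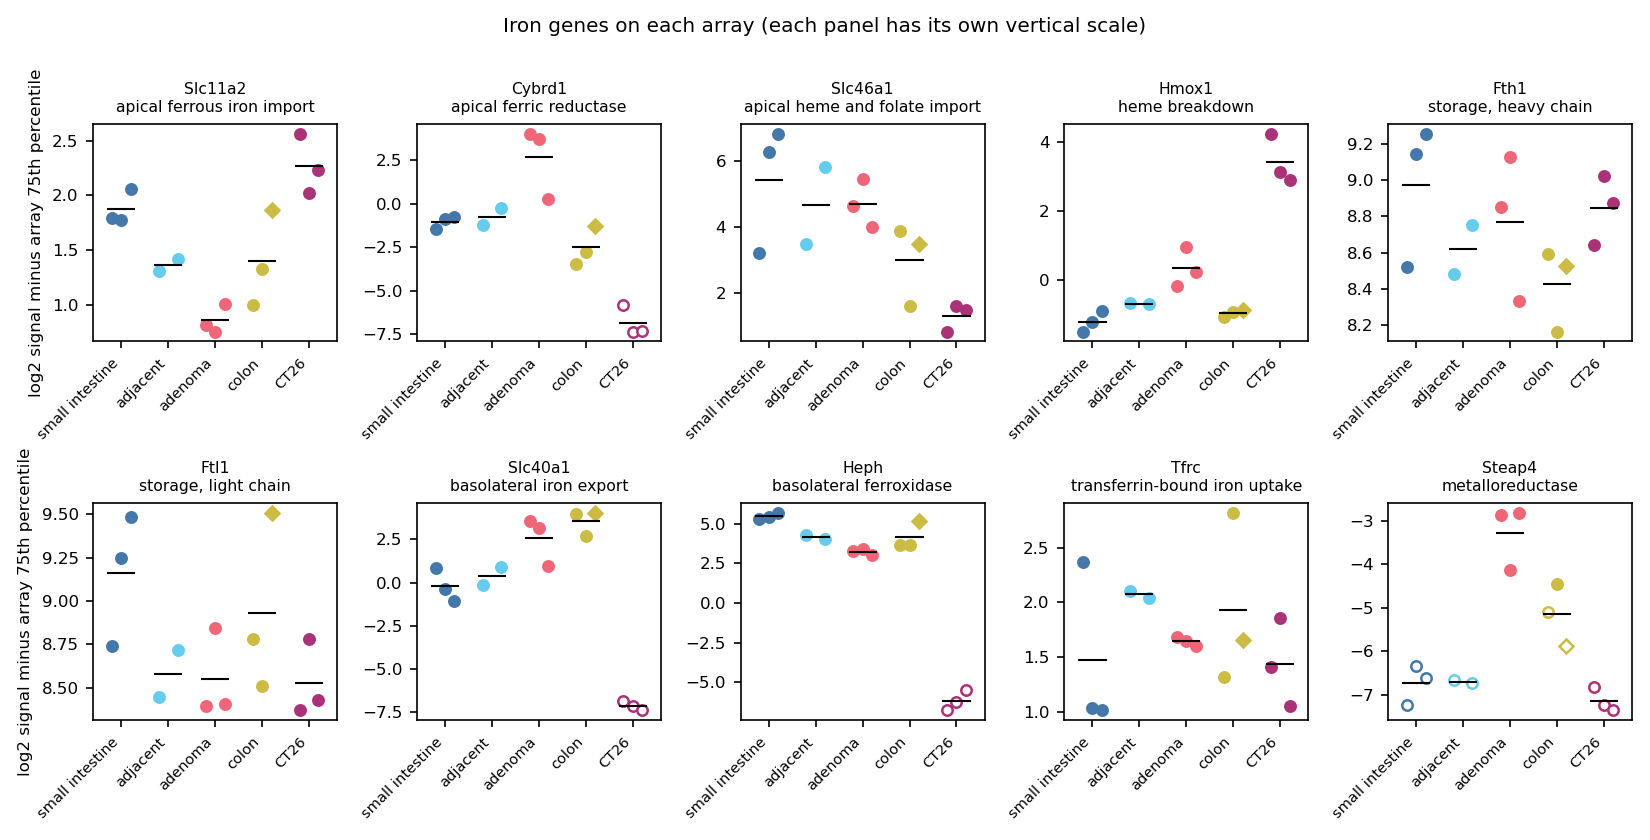
Level of each of the 10 iron genes on each of the 14 arrays (vertical axis, log2 signal minus the array's 75th percentile, with a separate scale in each panel) by sample group (horizontal axis); lines are group means, open symbols are not well above background, and the diamond is colon replicate 3. CT26 shows only open symbols for Cybrd1, Slc40a1, Heph and Steap4, and the 3 adenomas lie above all other arrays for Steap4.

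Without overlap between arrays, 6 of the 10 genes separated adenomas from small intestine, where 65.2% of all tested names did so. Between adenomas and adjacent tissue, 7 of 10 did not overlap, against 57.1% of all names, and between CT26 and colon 7 of the 9 tested, against 63.4%. Between adjacent tissue and small intestine 4 of 9 did not overlap, against 52.9%, between colon and small intestine 2 of 9, against 29.1%, and between adenomas and colon 5 of 10, against 38.8%. With colon replicate 3 left out, the colon comparisons gave 7 of 9 for CT26, against 74.2%, 4 of 9 for small intestine, against 60.1%, and 5 of 10 for adenomas, against 59.4%. With shares of this size over all names, a lack of overlap alone is not read here as a result about the iron genes.

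**Figure D2:**
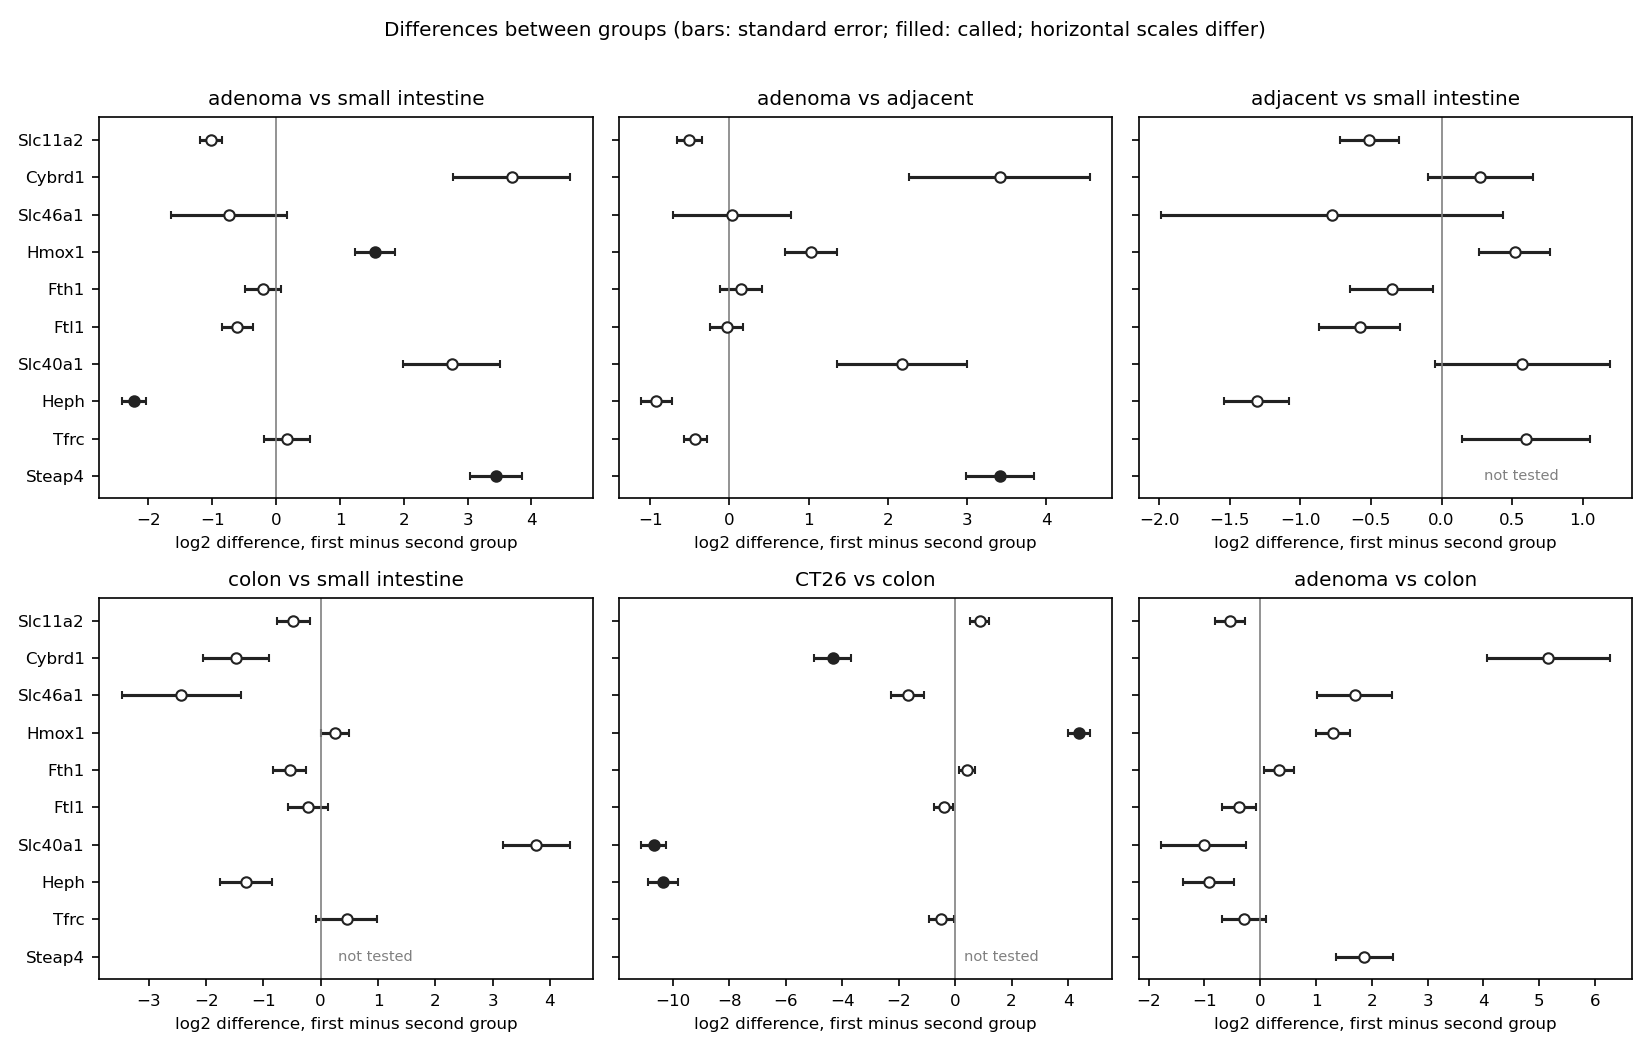
Log2 difference of each iron gene (horizontal axis, first minus second group, with a scale of its own in each panel; bars are standard errors from limma) in the 6 comparisons; filled points were called. Filled points appear for Hmox1, Heph and Steap4 in adenoma against small intestine, for Steap4 in adenoma against adjacent tissue and for Cybrd1, Hmox1, Slc40a1 and Heph in CT26 against colon.

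Slc11a2 encodes DMT1, the apical transporter of ferrous iron. It measured 1.80, 1.77 and 2.06 in small intestine, 1.31 and 1.42 in adjacent tissue, and 0.81, 0.75 and 1.01 in adenomas. The 3 groups stood in that order with no overlap. Adenomas differed from small intestine by -1.02 ± 0.17 (log2 difference ± SE, adjusted p = 0.0029), a 2.02-fold difference that met the p threshold but not the fold threshold. The differences between adenomas and adjacent tissue (-0.51 ± 0.16, adjusted p = 0.076) and between adjacent tissue and small intestine (-0.51 ± 0.21, adjusted p = 0.168) were not called. In colon the values were 1.0, 1.33 and 1.86, the last on replicate 3, which alone reached the small intestine's range. CT26 measured 2.56, 2.02 and 2.23, above every colon array, with a difference of 0.88 ± 0.33 (adjusted p = 0.0594), or 1.11 ± 0.31 without colon replicate 3 (adjusted p = 0.0186). A second Slc11a2 probe, at chr15:100240516-100240575 in mm9 against chr15:100218333-100218392 for the first, both on the minus strand, gave 0.04 ± 0.35 between adenomas and small intestine (adjusted p = 0.935), so the lower level in adenomas was seen on 1 of the 2 probes.

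Beside Slc11a2 and Heph, markers of absorptive enterocytes moved with the adenomas. Of 10 small intestine enterocyte genes tested, 6 were called lower in adenomas than in small intestine and none higher, and their summed level ranged from 493 to 825 in adenomas, from 1917 to 2044 in adjacent tissue and from 1627 to 4637 in small intestine. Of 8 epithelial genes, 1 was called higher and 3 lower. The median of 6 proximal small intestine genes ranged from 2.60 to 2.89 in adenomas and from 1.29 to 3.12 in small intestine, with 1 of 6 called in each direction. Their summed level was 57.0 to 69.9 in adenomas and 56.3 to 75.9 in adjacent tissue, below small intestine at 151 to 163. Of 6 smooth muscle genes 1 was called lower in adenomas, and of 10 proliferation genes 8 were called higher. The part of these shifts in the iron genes' values was not tested.

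Cybrd1 encodes duodenal cytochrome b, the apical ferric reductase that supplies Slc11a2 with ferrous iron. Adenoma replicates 1 and 2 measured 4.01 and 3.69, and replicate 3 measured 0.30. Small intestine measured -1.43, -0.85 and -0.79 and adjacent tissue -1.24 and -0.26, so that every adenoma lay above both groups, although the third by far less than the others. The difference from small intestine was 3.69 ± 0.92, a 12.9-fold difference that missed the p threshold (adjusted p = 0.0143). Without adenoma replicate 3 it was 4.87 and was called (adjusted p = 4.4e-04). The difference from adjacent tissue, 3.41 ± 1.14, was not called (adjusted p = 0.0866). The second Cybrd1 probe gave 3.74 ± 0.92 against small intestine and, on the 3 adenomas, 2.0, 1.74 and -1.58, with the same replicate low.

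Colon measured -3.49, -2.76 and -1.26 for Cybrd1. Replicates 1 and 2 lay below all small intestine arrays and replicate 3 among them. Without replicate 3 the colon differed from small intestine by -2.10 ± 0.34 (adjusted p = 0.0102), and with it by -1.48 ± 0.57 (adjusted p = 0.188). CT26 was not well above background on any of its 3 arrays, at -5.81, -7.34 and -7.34. Set against the lowest signals well above background, Cybrd1 was at least 6.85-fold lower in CT26 than in colon (adjusted p = 0.00116), and at least 4.45-fold lower without colon replicate 3. The call and the bound depended on the processing, since the log2 difference was -1.25 in the authors' table (adjusted p = 0.0254) and -1.66 with normexp background correction (adjusted p = 0.0109), neither called. The second probe gave -1.92 ± 0.63 for this comparison and was not called (adjusted p = 0.0348).

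Promoter windows from RefSeq, which run from 250 bases before to 50 bases after a transcript's start in GRCm38.p6, were matched for 6 of the 10 genes: Cybrd1, Slc46a1, Fth1, Ftl1, Tfrc and Steap4, with 2 starts each for Fth1 and Tfrc. Slc11a2, Hmox1, Slc40a1 and Heph were not matched. The windows were searched for 3 strings. The first was TGACNNNGC, a core of the antioxidant response element, and the second ACGTG, a core of the hypoxia response element, both on either strand. The third, the bulge and loop of an iron-responsive element, was C, any 5 bases and CAGTG, on the gene's strand. They do not contain each other. Of all 32851 windows, 12.4% held the first, 19.6% the second and 10.5% the third. ACGTG was present in both Tfrc windows, at 1 and the same place, and no other member's window held any of the 3. The sequences before the start are shown for Cybrd1 and Steap4, the 2 matched members with the largest positive differences in adenomas, and for Tfrc, the only one with a match, up to the end of the match, which runs from 2 bases before to 3 bases after the first start. Capitals mark the match. All 3 genes lie on the plus strand.
Cybrd1 (chr2:71117804-71118053): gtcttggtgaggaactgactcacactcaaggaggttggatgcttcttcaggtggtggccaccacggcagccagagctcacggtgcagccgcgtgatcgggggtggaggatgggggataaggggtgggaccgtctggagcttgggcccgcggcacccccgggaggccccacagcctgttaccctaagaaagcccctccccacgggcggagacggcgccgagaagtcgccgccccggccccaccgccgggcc
Steap4 (chr5:7960222-7960471): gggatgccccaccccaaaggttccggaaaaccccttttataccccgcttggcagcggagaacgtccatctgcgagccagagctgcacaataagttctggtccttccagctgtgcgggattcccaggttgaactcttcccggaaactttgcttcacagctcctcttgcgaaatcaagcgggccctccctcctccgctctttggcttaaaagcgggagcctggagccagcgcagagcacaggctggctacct
Tfrc (chr16:32608646-32608898): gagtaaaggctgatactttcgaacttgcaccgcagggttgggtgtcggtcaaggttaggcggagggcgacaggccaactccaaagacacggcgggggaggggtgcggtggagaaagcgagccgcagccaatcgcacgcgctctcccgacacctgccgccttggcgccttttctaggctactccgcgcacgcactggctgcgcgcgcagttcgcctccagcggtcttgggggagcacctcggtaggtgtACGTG
G and C made up 69.2% of the 250 bases before the start in Cybrd1, 58.4% in Steap4 and 64.8% in Tfrc. A match is a description of the letters, and its absence says only that they are not in these windows. Only the first 50 bases after a start were covered, so the rest of each transcript was not searched for the iron-responsive element.

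Slc46a1 encodes the proton-coupled folate transporter, which was also described as a heme carrier. Its arrays fell apart within the small intestine, with 3.21 on replicate 1 and 6.26 and 6.80 on replicates 2 and 3. Adjacent tissue divided in the same way, with 3.48 on replicate 1 and 5.82 on replicate 2. The adenomas measured 4.62, 5.44 and 3.99, inside the small intestine's range, and differed from it by -0.74 ± 0.91 (adjusted p = 0.515). Where Slc46a1 was low within these groups, markers of the ileum were high. Their summed level was 1234 on small intestine replicate 1 against 190 and 157 on replicates 2 and 3, and 346 on adjacent replicate 1 against 34.2 on replicate 2. In the adenomas it was 6.46 to 9.06, below every normal tissue array, and 3 of the 6 ileum genes were called lower there than in small intestine. The part of the place along the gut in the Slc46a1 values was not tested.

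**Figure D3:**
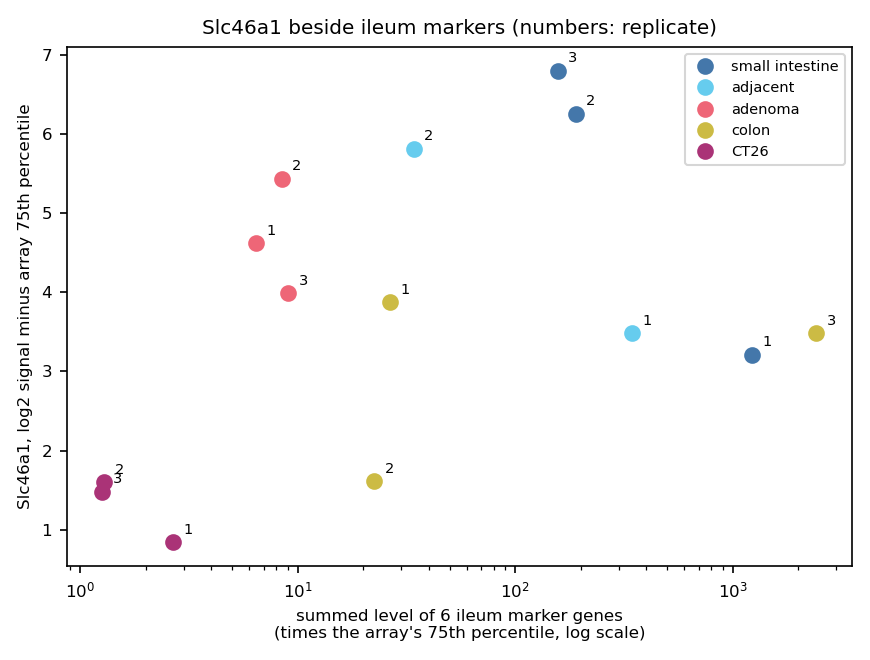
Slc46a1 level (vertical axis, log2 signal minus the array's 75th percentile) against the summed level of 6 ileum marker genes (horizontal log axis, in multiples of the array's 75th percentile) on each of the 14 arrays, with replicate numbers beside the points. Small intestine replicate 1 and adjacent replicate 1 lie to the right of and below the other arrays of their groups.

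Colon measured 3.87, 1.62 and 3.49 for Slc46a1 and CT26 0.84, 1.60 and 1.48. Colon differed from small intestine by -2.43 ± 1.04 (adjusted p = 0.219), and by -2.68 ± 1.19 without colon replicate 3 (adjusted p = 0.145). All CT26 arrays lay below all colon arrays, narrowly for colon replicate 2. The difference, -1.68 ± 0.59, was not called (adjusted p = 0.045). Without colon replicate 2 it was -2.37 and was called (adjusted p = 0.00302), and without colon replicate 3 it was -1.44 (adjusted p = 0.0946). The second Slc46a1 probe gave -1.73 ± 0.58 and was not called either.

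Hmox1 encodes heme oxygenase 1, the inducible enzyme that opens heme and releases its iron. Small intestine measured -1.49, -1.23 and -0.90, adjacent tissue -0.67 and -0.70, and adenomas -0.16, 0.95 and 0.24. The 3 groups did not overlap and stood in that order. Hmox1 rose 2.93-fold from small intestine to adenomas (1.55 ± 0.31, adjusted p = 0.00623). The call depended on single arrays: without small intestine replicate 1, 2 or 3 the adjusted p was 0.0142, 0.0217 and 0.0101, and without adenoma replicate 2 or 3 it was 0.0164 and 0.0211. Against adjacent tissue the difference was 1.03 ± 0.33 and was not called (adjusted p = 0.0788). A second Hmox1 probe went the other way in adenomas, with a difference of -0.49 ± 0.40 from small intestine (adjusted p = 0.327). The first lies at chr8:77624207-77624266 and the second at chr8:77620797-77620856 in mm9, both on the plus strand.

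CT26 had the highest Hmox1 levels of all groups, 4.24, 3.14 and 2.89, and on both probes its arrays were higher than every tissue array. Colon measured -1.07, -0.93 and -0.88, and its 3 arrays lay close together. Hmox1 was 20.8-fold higher in CT26 than in colon (4.38 ± 0.40, adjusted p = 8.92e-05) and 21.5-fold higher without colon replicate 3. The second probe was called as well, at 3.24 ± 0.38 (adjusted p = 3.24e-04).

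Because Hmox1 is also a gene of macrophages that clear red blood cells, markers of blood and myeloid cells are given beside it. The summed level of 8 red blood cell genes was 397 to 456 in adenomas, 253 to 278 in adjacent tissue, 14.6 to 41.7 in small intestine and 13.4 to 19.2 in colon. All 7 of these genes that could be tested were called higher in adenomas than in small intestine. The summed level of 10 macrophage genes was 12.4 to 16.9 in adenomas and 13.9 to 16.7 in small intestine, and 1 of 8 tested was called higher. The median of 8 neutrophil genes was -2.29 to -0.72 in adenomas and -5.44 to -4.70 in small intestine, and 2 of 5 tested were called higher in adenomas, both against small intestine and against adjacent tissue. Their summed level did not separate these groups, at 47.1 to 55.9 in adenomas, 31.4 to 54.2 in small intestine and 55.4 to 61.5 in adjacent tissue. In CT26 it was 58.4 to 83.5. In CT26 the red blood cell sum was 0.356 to 0.527 and the macrophage sum 2.83 to 3.75, both below every tissue array, and 3 to 4 of the 10 macrophage genes were well above background. The part of these cells in the tissue values of Hmox1 was not tested.

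The ferritin genes were the steadiest of the 10. Fth1, the heavy chain with ferroxidase activity, ranged from 8.17 to 9.25 over all 14 arrays, a 2.12-fold range, and Ftl1, the light chain, from 8.37 to 9.51, a 2.20-fold range. Neither was called in any of the 6 comparisons. Ftl1 measured 8.40, 8.85 and 8.41 in adenomas and 8.74, 9.25 and 9.49 in small intestine, which overlapped, and the difference was -0.61 ± 0.24 (adjusted p = 0.0721). The Fth1 difference was -0.20 ± 0.28 (adjusted p = 0.570). In CT26, Fth1 measured 8.64, 9.02 and 8.88, just above colon at 8.59, 8.17 and 8.53, with a difference of 0.42 ± 0.28 (adjusted p = 0.254), or 0.47 ± 0.30 without colon replicate 3 (adjusted p = 0.221). Ferritin is controlled mainly at translation, which these arrays do not measure.

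Slc40a1 encodes ferroportin, the only known cellular iron exporter. Colon had the highest mean, with 4.0, 2.68 and 4.04, above small intestine at 0.84, -0.34 and -1.08 on every array. The difference was 3.77 ± 0.59, or 13.6-fold, and was not called (adjusted p = 0.056). It was 3.53 ± 0.65 without colon replicate 3 (adjusted p = 0.0148). Adenomas measured 3.56, 3.18 and 0.94, above small intestine on all arrays, and adjacent tissue measured -0.16 and 0.92. The difference between adenomas and small intestine, 2.75 ± 0.76 or 6.73-fold, was not called (adjusted p = 0.021), and without adenoma replicate 3 it was 3.56 and was called (adjusted p = 0.00528). The adenoma that was low for Slc40a1 was the one that was low for Cybrd1. Adenomas differed from adjacent tissue by 2.18 ± 0.82 (adjusted p = 0.113) and from colon by -1.01 ± 0.76 (adjusted p = 0.441), or -0.78 ± 0.86 without colon replicate 3 (adjusted p = 0.539).

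In CT26, Slc40a1 was not well above background on any array, at -6.84, -7.12 and -7.39. It was at least 462-fold lower than in colon (adjusted p = 1.85e-06), and at least 393-fold lower without colon replicate 3. The fitted log2 difference of -10.69 was -6.82 in the authors' table and -7.02 with normexp, both called but smaller than this bound. No tissue array came near the CT26 values.

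Heph encodes hephaestin, the membrane ferroxidase that works with ferroportin. Small intestine measured 5.30, 5.44 and 5.69, adjacent tissue 4.30 and 4.03, and adenomas 3.27, 3.43 and 3.03. The 3 groups stood in steps with narrow spreads and no overlap. Heph fell 4.69-fold in adenomas against small intestine (-2.23 ± 0.19, adjusted p = 2.21e-04). Adjacent tissue differed from small intestine by -1.31 ± 0.23 (adjusted p = 0.0523) and adenomas from adjacent tissue by -0.92 ± 0.19 (adjusted p = 0.0272), neither called. Of 2 further Heph probes, 1 was called between adenomas and small intestine (-2.28 ± 0.16) and the other just missed the fold threshold (-1.19 ± 0.18). On the first of these no adenoma was well above background.

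In colon, Heph measured 3.63 and 3.67 on replicates 1 and 2 and 5.20 on replicate 3. Without replicate 3, Heph in colon was 3.54-fold lower than small intestine (-1.82 ± 0.23, adjusted p = 0.005), while with it the difference of -1.31 ± 0.46 was not called (adjusted p = 0.163). CT26 measured -6.78, -6.27 and -5.53, not well above background on any array. Heph was at least 615-fold lower in CT26 than in colon (adjusted p = 5.14e-06), and at least 429-fold lower without colon replicate 3. Here too the log2 difference was smaller in the authors' table, at -7.21, than the bound. The same CT26 arrays had a median of -5.72 to -5.14 for 8 epithelial marker genes, all 8 of them called lower than in colon, and 3 to 4 of the 8 were well above background there.

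Tfrc encodes the transferrin receptor, through which cells take up transferrin-bound iron. Its first probe was printed on 10 spots, whose values were averaged. Small intestine measured 2.37, 1.04 and 1.01, adjacent tissue 2.10 and 2.04, adenomas 1.68, 1.65 and 1.61, colon 1.32, 2.82 and 1.66, and CT26 1.41, 1.85 and 1.05. Neighboring groups in the order of means overlapped throughout, and the adenomas lay within the range of the small intestine. The difference between them was 0.17 ± 0.37 (adjusted p = 0.713). Adenomas lay below both adjacent arrays, by -0.43 ± 0.14 (adjusted p = 0.0842). CT26 differed from colon by -0.49 ± 0.45 (adjusted p = 0.397), or -0.63 ± 0.49 without colon replicate 3 (adjusted p = 0.314). The 2 other Tfrc probes were not called in any comparison.

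Steap4 encodes a metalloreductase of the STEAP family, which reduces iron and copper. It was well above background on all 3 adenomas, at -2.86, -4.14 and -2.82, on none of the small intestine arrays, at -7.23, -6.33 and -6.60, and on neither adjacent array, at -6.66 and -6.73. Colon replicate 2, at -4.45, was the only other array where it was well above background, with -5.11 and -5.88 on replicates 1 and 3. All adenomas thus lay above all other arrays. Steap4 rose at least 2.39-fold in adenomas against small intestine (fitted difference 3.44 ± 0.41, adjusted p = 7.79e-04). Against adjacent tissue it rose at least 2.31-fold (3.42 ± 0.43, adjusted p = 0.00798). Steap4 entered both fits through the adenomas alone, so that the fitted size and the call rest on signals near background in the other group. The call against adjacent tissue was lost when either adjacent array or any of the 3 adenomas was left out, with adjusted p from 0.0184 to 0.0302. It was also lost without the filter (adjusted p = 0.0247), with the slide block (0.0119) and with the replicate block (0.0154). In the authors' normalized table the difference was 1.01 against small intestine and 0.95 against adjacent tissue, and with normexp it was 0.79 and 0.68, none of them called. All of these were smaller than the 2 bounds, which therefore hold only for the scaling used here. Against colon the difference was 1.87 ± 0.51 (adjusted p = 0.0641), and 1.5 ± 0.47 without colon replicate 3 (adjusted p = 0.0614). CT26 was not well above background on any array, at -6.82, -7.23 and -7.35.

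The tumor comparisons were then set against each other, as adenoma minus small intestine less CT26 minus colon, in 1 limma fit of 12 arrays that share no control. This difference was called for 6 of the 10 genes, against 30.9% of 23445 gene names (15.3% higher and 15.5% lower), and for the same number without colon replicate 3, against 35.8% (17.3% higher and 18.5% lower). It holds the strain, culture and tissue make-up in which CT26 and whole colon differ, and these cannot be told apart from tumor. Slc40a1 differed most, at 13.44 ± 0.96 (adjusted p = 1.02e-06), with 2.75 in adenomas and -10.69 in CT26. Heph was at 8.13 ± 0.60, with -2.23 and -10.36, so that it was lower in both tumors but by far more in CT26. Cybrd1 was at 8.02 ± 1.26, with 3.69 and -4.33. Steap4 was at 5.43 ± 0.62, with 3.44 and -1.99, but it entered the fit through the adenomas alone and was well above background on 1 of the other 9 arrays, a colon array, so that its size and call rest on signals near background. For Slc40a1, Heph and Cybrd1, CT26 has only a bound. In the authors' table the difference was 9.53 for Slc40a1, 5.33 for Heph, 4.82 for Cybrd1 and 1.34 for Steap4. Hmox1 was at -2.83 ± 0.53 (adjusted p = 0.00128), with 1.55 in adenomas and 4.38 in CT26, higher in both on this probe but more in CT26. Slc11a2 was at -1.89 ± 0.36 (adjusted p = 0.0015), with -1.02 and 0.88. On their second probes Cybrd1 (5.66 ± 1.25) and Hmox1 (-3.74 ± 0.58, with -0.49 in adenomas, not higher there) were called too, while Slc11a2 (-0.41 ± 0.73, adjusted p = 0.677) was not. Neither further Heph probe was called, with 0.12 ± 0.56 and 0.84 ± 0.53, so the Heph difference rests on 1 of 3 probes. Both further probes were dim and had little room to show a difference of this size. The last was well above background on no adenoma or CT26 array. It was called lower in CT26 than in colon by limma (-3.12 ± 0.47, adjusted p = 0.00119). The median over all tested names was -0.43, so Hmox1 and Slc11a2 lay beyond it and the other 4 on its opposite side. Fth1, Ftl1, Tfrc and Slc46a1 were not called, with differences from -0.62 to 0.94.

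**Figure D4:**
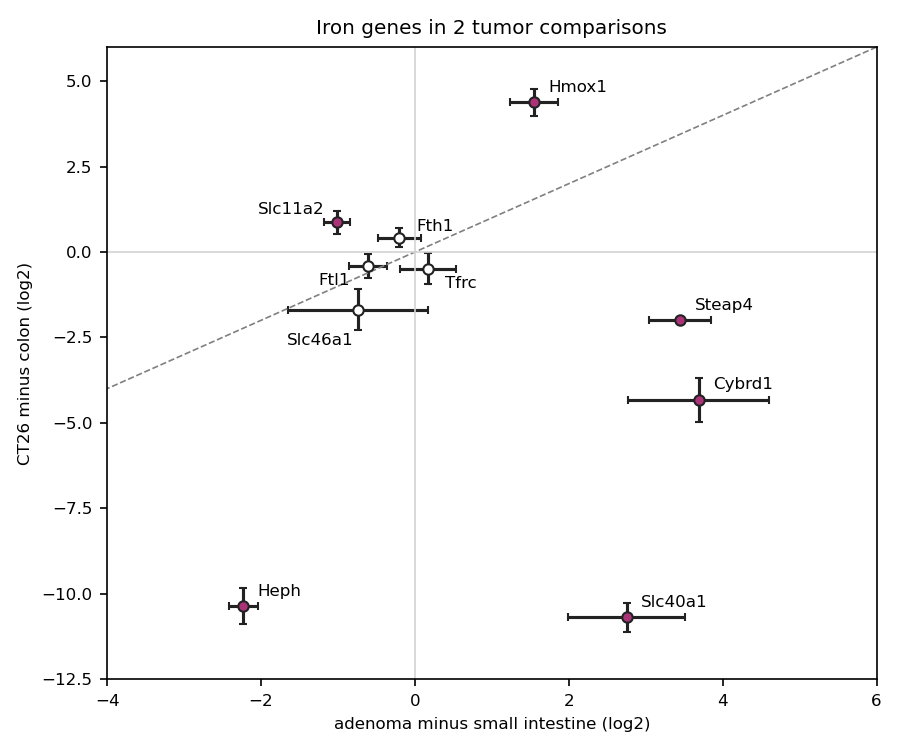
Log2 difference of each iron gene between adenoma and small intestine (horizontal axis) and between CT26 and colon (vertical axis), with standard errors from limma as bars; the dashed line marks equal differences, filled points were called for the difference between the comparisons, and Steap4 has no vertical bar because it was not tested between CT26 and colon. Hmox1 and Slc11a2 lie above the line, Cybrd1, Slc40a1, Heph and Steap4 well below it, and the ferritins and Tfrc near the origin.

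Other genes of iron metabolism were read from 7 lists of 58 genes in all, of which 55 are on the array. Between adenomas and small intestine 15 of 50 tested were called higher and 5 lower, with a list median of -0.22 against -0.15 over all names. Over all names 11.3% rose and 11.1% fell. The largest increases were in genes of secreted iron-binding and iron-regulating proteins. Ltf, which encodes lactoferrin, rose by 5.85 ± 0.33 on the log2 scale, from -3.04, -3.19 and -2.04 in small intestine to 2.81, 3.41 and 3.05 in adenomas. Lcn2, whose product binds bacterial siderophores, rose by 4.62 ± 0.49. Both are also genes of neutrophil granules. Hp, which encodes the hemoglobin scavenger haptoglobin, rose by 4.10 ± 0.63, and Trf, which encodes transferrin, by 3.82 ± 0.61. Hamp, which encodes hepcidin, measured -1.01, -1.02 and -1.01 in adenomas and was not well above background on any small intestine array. In adenomas it was at least 11.5-fold above that (adjusted p = 9.15e-05). Hamp2 is a related copy, and whether the Hamp probe also reads it was not tested. The Hamp2 probe measured -3.33, -3.63 and -3.45 in adenomas. On colon replicate 1 it measured -1.6, where Hamp measured -4.7.

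By list, 5 of 7 tested genes of the transferrin cycle and other transport rose in adenomas and none fell, with Trf, Cp, Steap1, Steap2 and Slc39a8 called. Of 8 tested genes of the hepcidin axis 5 rose, and of 3 siderophore and lactoferrin genes 2 rose. Of 8 tested heme genes 3 rose and 1 fell, the last being Abcg2, an exporter of heme and porphyrins (-2.95 ± 0.28). Of 12 oxygen and oxidant regulators 3 fell and none rose. They were Bach1 (-2.57 ± 0.16), whose product represses Hmox1, Srxn1 (-2.30 ± 0.21) and Gclm (-1.86 ± 0.24). Of 6 mitochondrial iron genes 1 fell, Slc25a37, which encodes the mitochondrial iron importer mitoferrin 1 (-1.41 ± 0.17). Of the 6 iron sensing genes, among them Aco1 and Ireb2 of the iron regulatory proteins, none was called by limma, with the list median at -0.26 and 2 of the 6 at an unadjusted p under 0.05. At that p there were 36 of the 50 tested genes of all lists, against 60.0% of all names.

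**Figure D5:**
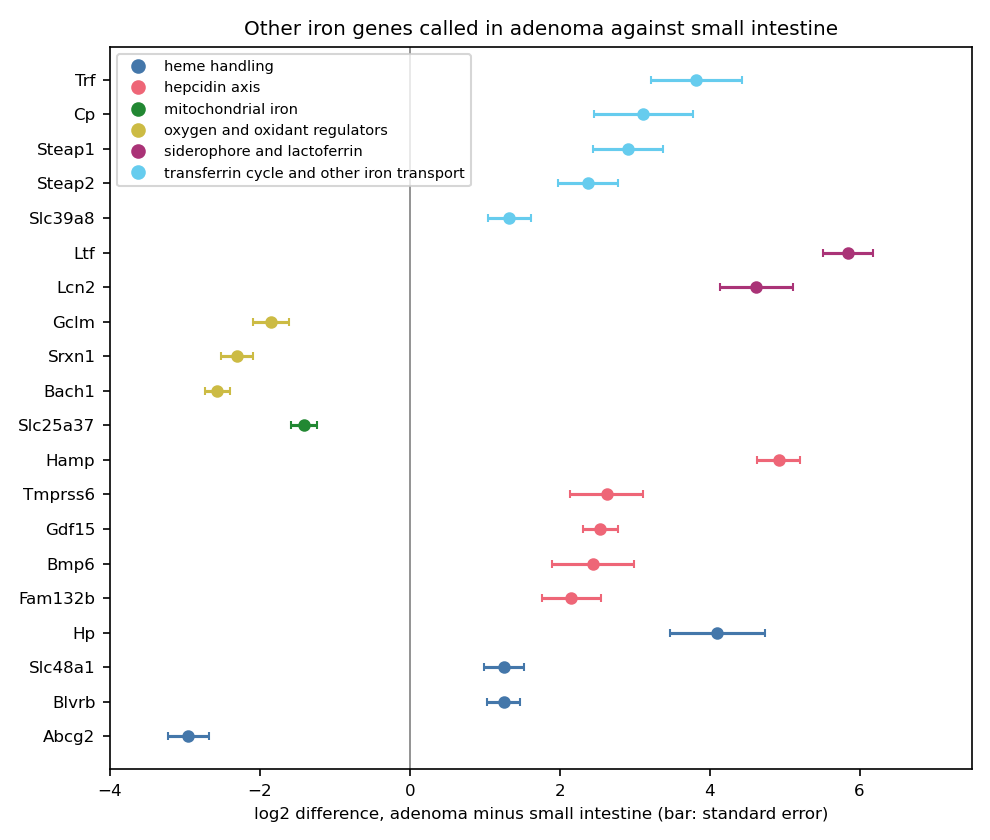
Log2 difference between adenoma and small intestine (horizontal axis, bars are standard errors from limma) for the 20 further iron genes called in this comparison, colored by list. The 15 increases run from 1.25 to 5.85 and the 5 decreases from -1.41 to -2.95.

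Against adjacent tissue from the same mouse, 5 of 50 genes were called higher in adenomas and 1 lower, against 2.40% and 1.78% over all names. Hp was higher by 5.36 ± 0.31, Lcn2 by 4.39 ± 0.33, Trf by 3.73 ± 0.32, Gdf15 by 2.58 ± 0.24 and Blvrb, which encodes biliverdin reductase B, by 1.60 ± 0.21, while Slc25a37 was lower (-1.43 ± 0.17). Between adjacent tissue and small intestine none of 49 was called by limma, and 17 had an unadjusted p under 0.05, against 30.6% of all names. Between colon and small intestine none of 46 was called and 11 had such a p, against 23.9% of all names. Without colon replicate 3, Hif3a was called higher and Srxn1, Bach1, Slc25a37 and Slc39a14 lower, of 48, against 3.34% higher and 3.90% lower over all names. Between adenomas and colon, Ltf (7.67 ± 0.81), Lcn2 (5.46 ± 0.51), Hamp (3.65 ± 0.20) and Blvrb (1.76 ± 0.21) were called higher, as was Tmprss6, at least 6.05-fold, and none of 50 lower, against 2.07% and 1.63% over all names. Without colon replicate 3, 7 were called higher and 3 lower, against 5.03% and 6.69%. Hp was then among the higher ones (6.29 ± 0.35, adjusted p = 4.08e-04).

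Between CT26 and colon, 7 of 46 tested genes were called higher and 10 lower, beside 21.0% and 16.2% over all names. Steap1 (5.55 ± 0.43, with 1 CT26 array left out as an outlier spot) and Steap2 (4.83 ± 0.35), metalloreductases of the same family as Steap4, were higher, as were the ferroxidase gene Cp (3.89 ± 0.46), Pcbp2 (1.94 ± 0.32), whose product delivers iron inside the cell, and Hpx, at least 2.35-fold. Among the lower ones, Abcg2 was at least 1178-fold, Egln3 at least 126-fold, Slc39a8 at least 60.1-fold and Fam132b at least 14.8-fold lower, and Trf differed by -6.79 ± 0.46. Without colon replicate 3 the bound for Abcg2 was 638-fold and that for Slc39a8 was 125-fold. The list median was 0.32, and so was that over all names. With that array left out, 9 of 48 tested were called higher and 12 lower, against 20.1% and 19.4% over all names.

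The genes whose levels ran most nearly parallel to those of the 10 over all 14 arrays were looked up among 23651 gene names, by Pearson's r and as a description, since the arrays of a group share their tissue. Heph ran with Fbp2 (r = 0.998) and Myo5b (0.997), Slc40a1 with Slc35c1 (0.979) and Isyna1 (0.976), and Slc11a2 with Tap1 (0.968) and Got1 (0.967). Cybrd1 ran with Sprr1a (0.960) and Hs3st1 (0.958), Ftl1 with Egln2 (0.946) and Ndufa3 (0.937), and Slc46a1 with Ppp1r16b (0.941) and Mosc2 (0.928). Hmox1 was matched by unannotated probes (0.990 and 0.984) and Steap4 by an intergenic transcript (0.967) and Fam19a2 (0.960). Fth1, which varied little, reached 0.861 with 5033430I15Rik and 0.853 with Gapdh, and Tfrc no more than 0.762, with BC034637.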

How the data were processed

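Each of 14 samples was hybridized to 1 one-color Agilent array. The authors deposited Feature Extraction 10.7.3.1 output, with intensity per spot after background subtraction and no normalization between arrays, on coordinates of mm9. A further deposited table held log2 values that the authors had normalized to the same distribution on every array, by a method not given in the sources used here; its 28 other per-sample columns and its group comparisons (fold changes and p-values) were not used. Control spots and outlier spots (103 to 206 per array) were removed, and intensities were put on the log2 scale, scaled to each array's 75th percentile and averaged over the spots of a probe.

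Groups were compared with limma 3.58.1 in R 4.3.3, fitted to the arrays of the groups compared, for probes that were well above background throughout 1 group or more. P-values were adjusted by Benjamini-Hochberg over all probes. Each gene is represented by the probe of highest mean over the 14 arrays, and percentages over all names use 1 probe each. A "fold at least" sets the brighter mean against the lowest signals well above background. Such a bound holds only for the scaling used here, and for Steap4, Slc40a1, Heph and Cybrd1 the authors' table gave differences smaller than it. The tests were tested on simulated data. Precision is limited by the number of arrays.

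Named were all 10 genes and, from each comparison, up to 5 called genes in each direction of the iron lists, by size. The members, iron lists and marker lists were chosen with earlier results of these data known. Alternatives were the authors' table, normexp (offset 50), quantile normalization, no filter, all groups in 1 fit, a block for slide or for replicate number, an adjusted p of 0.05 alone, any probe of a gene, and the omission of each array. The arrays lay on 2 slides, each holding arrays of all groups.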

Additional observations from a re-analysis of the deposited data

Results flagged for a closer look

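For 6 genes the values changed differently in the 2 tumor comparisons, by the limma test of adenoma minus small intestine less CT26 minus colon. The difference was 13.44 for Slc40a1, 8.131 for Heph, 8.017 for Cybrd1 and 5.433 for Steap4, and it was -2.833 for Hmox1 and -1.892 for Slc11a2 (log2). Slc40a1 and Cybrd1 were higher in all adenomas than in all small intestine arrays and lower in all CT26 than in all colon arrays, while Slc11a2 showed the reverse. The further probes of Heph (0.12 and 0.84, both dim) and Slc11a2 (-0.41) were not called. Heph was lower in both tumors, and Hmox1 was higher in both on its first probe, while its second probe gave -0.49 in adenomas. Steap4 was near background in small intestine, CT26 and on 2 of 3 colon arrays, and its difference was 1.34 in the authors' table and 1.68 with normexp. All 6 kept their direction and their call under the 18 alternatives tried for each, colon replicate 3 left out included.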

How the results depend on the processing

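Of the single-gene values recomputed under an alternative on the same probe, 259 kept their direction and side of the thresholds, 20 lost the call and 10 gained one, and none changed sign. Other probes of a gene are not in this count. On its second probe Hmox1 changed sign between adenomas and small intestine, from 1.55 to -0.49. Between adenomas and small intestine the count of called iron genes was 3, and became 5 with all groups in 1 fit (17.5% of all names called) and 6 at an adjusted p of 0.05 alone (52.8%), against 22.4% in the reported fit, and ranged from 2 to 4 when single arrays were left out. Between adenomas and adjacent tissue the count of 1 became 0 in the authors' table (4.09% of all names), with normexp (4.74%), without the filter (0.149%) and with the slide block (0.730%), 2 at an adjusted p of 0.05 alone (20.2%), and ranged from 0 to 0 without single arrays. Between colon and small intestine the count of 0 became 1 (Slc40a1) with all groups in 1 fit (3.86%) and ranged from 0 to 1 when arrays were left out, with 1 (Heph) without colon replicate 3. Between adenomas and colon the count of 0 became 1 (Cybrd1) with all groups in 1 fit (6.98%) and 2 at an adjusted p of 0.05 alone (12.7%). Cybrd1 between CT26 and colon, -4.33 here, was -1.25 in the authors' table and -1.66 with normexp and lost its call, and Steap4 between adenomas and small intestine was 1.01 and 0.79 and lost its call. The cause was not tested.

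Deviations of same-numbered arrays correlated from -0.223 to 0.302. With so few arrays in a group this cannot show whether samples were paired. For adjacent tissue the replicate numbers also differ from those in the authors' titles, so adenoma and adjacent arrays with the same title number were not matched. With the replicate block the count was 4 between adenomas and small intestine (20.1% of all names), with Slc40a1 gained (adjusted p = 0.00338). It was 0 between adenomas and adjacent tissue (0.369%), 4 between CT26 and colon (29.3%) and 6 for the difference between the tumor comparisons (28.6%). Within each of the 2 slides, all 16 differences of called genes had the pooled sign, 13 of them with 1 array in a group. This was fixed in advance, because the arrays of the groups compared did not overlap for any called gene. It therefore says nothing about an effect of the slide. Genes near background, Steap4 and the CT26 values of Cybrd1, Slc40a1 and Heph above all, have their size limited by signal over background.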
